A study of Mus musculus with 18 samples.

Results

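The comparison described here set cKit+ bone marrow cells carrying AE9a and given RE against wild-type (WT) cKit+ bone marrow cells given RE, over all genes counted in both. It took 6 of the 18 RNA-seq libraries of the series, AE9a RE 1, 2 and 3 against WT RE 1, 2 and 3, picked by their labelled genotype and treatment and by no measured value. The question was which differences between the genotypes remained when cells of both had received the compound. For that, 3 AE9a DMSO and 3 WT DMSO libraries, from cells given the solvent dimethyl sulfoxide in place of RE, were compared in the same way, and no library belonged to both comparisons. The study describes drug inhibition of WDR5 and of MLL1, but its labels do not say which of the compounds, RE or C16, acts on which protein, nor the dose or the time. They also do not say how AE9a was brought into the cells, which promoter drives it, the strain or age of the mice, or whether libraries 1, 2 and 3 are separate animals. The p-values below therefore measure only how these libraries spread, which may be technical. The counts were deposited as a table per genotype, and a genotype difference cannot be told apart from a difference between the tables or between the cultures or sorts behind them.

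AE9a is a splice form of AML1-ETO, the fusion that a chromosomal translocation in acute myeloid leukemia makes from RUNX1, a DNA-binding regulator of blood cell genes, and RUNX1T1 (ETO), which binds corepressors. It lacks the end of the ETO part and causes leukemia in mice. KIT, the surface receptor used to select the cells, binds stem cell factor and is found on stem cells, progenitors and mast cells. WDR5 is a scaffold subunit shared by the MLL and SET1 complexes, which methylate histone H3 at promoters, and MLL1 (gene Kmt2a) is the catalytic subunit of one of them.

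The 6 RE libraries held 16053727 to 23476911 fragments. Levels are given as CPM, the count scaled by library size, always in the order of libraries 1, 2 and 3. WT RE 2 stood apart: its root mean square log2 distance was 0.732 from WT RE 1 and 0.71 from WT RE 3, which lay 0.245 apart, while the AE9a RE libraries lay 0.188 to 0.248 from each other. Of 15439 genes, 1715 differed by more than 2-fold between WT RE 2 and the mean of WT RE 1 and 3, and 116 did so between WT RE 1 and 3. Summed over 20 genes of maturing neutrophils, levels reached 27602 CPM in WT RE 2, but 5191 CPM in WT RE 1, 4208 CPM in WT RE 3 and 4770 to 6664 CPM in the AE9a RE libraries. Over 21 megakaryocyte and platelet genes, the sum was 2639 to 2757 CPM in the AE9a RE libraries, against 8799, 4303 and 9290 CPM in WT RE 1, 2 and 3. In RNA of a whole cell population, fewer cells of a type and less RNA per cell cannot be told apart. Results are therefore given with and without WT RE 2, and its part in them was otherwise not tested.

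The labels held up on the genes that mark them. Runx1t1 (chromosome 4, 13742628 to 13895056, plus strand, GRCm39 as all gene positions here), the gene of the ETO part of the fusion, had 35.7, 44.9 and 45.2 CPM in the AE9a RE libraries, against 0.392, 0 and 0.108 CPM in the WT RE libraries. Runx1t1 differed by log2 7.88 ± 0.54 (SE), with an adjusted p of 0.000396. Every AE9a RE library lay far above every WT RE library. Kit had 1375, 1631 and 1613 CPM in the AE9a RE libraries, against 215, 84.7 and 190.01 CPM in the WT RE libraries. Kit differed by log2 3.25 ± 0.36 (SE), with an adjusted p of 0.00181 (log2 2.92 without WT RE 2). Both genotypes thus expressed the selected receptor, and the groups did not overlap. Nanog, which the study's design names, had 0 fragments in all 6 libraries, and fewer than 3 fragments in a library cannot be told from 0.

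Of 14599 genes tested, 4753 (32.6%) had an adjusted p under 0.05 in edgeR's quasi-likelihood test: 2625 (18%) were higher and 2128 (14.6%) were lower in AE9a RE. Among them 1112 were at least 2-fold higher and 1167 at least 2-fold lower, and at 8-fold the numbers were 375 higher and 107 lower. The median log2 difference of all tested genes was -0.02, with quartiles of -0.45 and 0.26. The 3 AE9a RE values did not overlap the 3 WT RE values for 7650 genes (52.4%; 27.2% higher and 25.2% lower). Without WT RE 2 the test called 8362 of 15146 genes (55.2%), which included 4738 of the 4753 in the same direction; 27.6% were higher and 27.6% lower. With upper-quartile scaling 2232 were higher and 2419 lower. The counts were 2816, 2363 and 2484 genes without AE9a RE 1, 2 or 3. Of 28 gene lists, those of mast cells and basophils, the type I interferon response and erythroid cells had the largest shares of higher genes, while eosinophil, B lineage, p53 target, dendritic cell and megakaryocyte genes had the largest shares of lower ones.

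**Figure D1:**
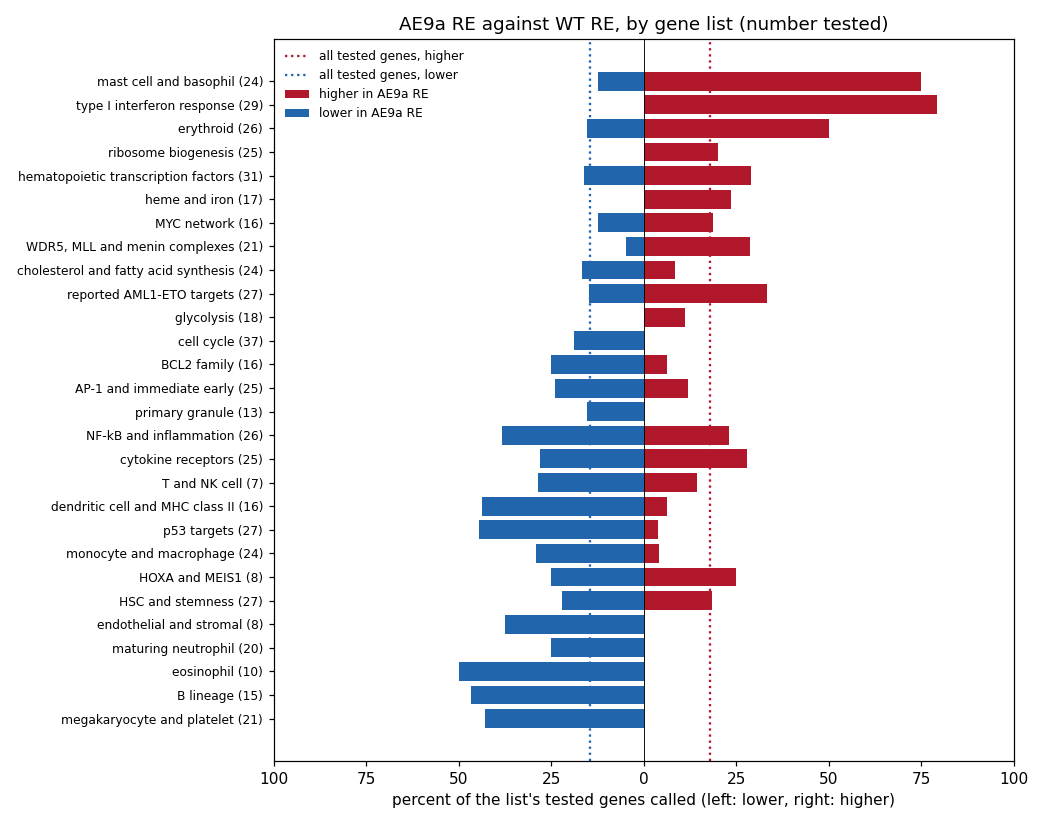
Percent of each list's tested genes (number in parentheses) called higher (red bars, right) or lower (blue bars, left) in AE9a RE than in WT RE, with lists in order of their median log2 difference; dotted lines mark all tested genes at 18% and 14.6%. The mast cell and interferon bars extend to 75 and 79.3 percent higher, and the bottom 5 lists have no higher gene.

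Most mast cell and basophil genes were higher in AE9a RE. Of 24 mast cell and basophil genes tested, 18 were higher and 3 lower, and the median log2 difference was 1.84 (1.79 without WT RE 2, with 18 higher and 4 lower). The number higher was 12 without AE9a RE 2 or without AE9a RE 3, and 14 to 16 without AE9a RE 1, WT RE 1 or WT RE 3. The summed platelet genes were lower in every AE9a RE library than in any WT RE library and the summed neutrophil genes were high in WT RE 2 alone, and the part of either in this result was not tested.

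The 2 genes at the top of the whole comparison by size were Mrgprx2 and Mrgprb2, receptors of the Mas-related family, of which Mrgprb2 is the mouse mast cell receptor for secretagogue peptides. Mrgprb2 (chromosome 7, 48200713 to 48207834, minus strand) had 169, 215 and 183 CPM in the AE9a RE libraries, against 0.05602, 0 and 0.0542 CPM in the WT RE libraries, and 2 fragments in all WT RE libraries gave a ratio of 4944 (95% counting interval 1368 to 40830). Mrgprx2 (chromosome 7, 48128367 to 48149018, minus strand) had 116, 155 and 154 CPM in the AE9a RE libraries, against 0, 0 and 0.0542 CPM in the WT RE libraries, a ratio of 7383 (95% counting interval 1325 to 291661) over a single WT fragment. Both were near absent from every WT RE library and high in every AE9a RE library. Neighbouring genes of 1 family may share fragments, and intervals here cover counting error only.

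The granule proteases followed the same pattern. Mcpt4 (chromosome 14, 56297201 to 56299767, minus strand), the mouse mast cell chymase, had 690.4, 686 and 788 CPM in the AE9a RE libraries, against 0.8403, 0.517 and 0.3797 CPM in the WT RE libraries. Mcpt4 differed by log2 10.27 ± 0.24 (SE), with an adjusted p of 4.09e-05 (log2 10.19 without WT RE 2). The tryptase gene Tpsab1 (chromosome 17, 25562219 to 25564536, minus strand) had 512, 589 and 518 CPM in the AE9a RE libraries, against 0.224, 0.775 and 0.542 CPM in the WT RE libraries. Tpsab1 differed by log2 10.05 ± 0.31 (SE), with an adjusted p of 5.39e-05. Its near-identical neighbour Tpsb2 had 3142, 3706 and 4051 CPM in the AE9a RE libraries, against 3.64, 30.5 and 10.9 CPM in the WT RE libraries, so fragments could be split between them. WT RE 2 held the most Tpsb2 and Tpsab1 of the WT libraries, yet far less than any AE9a library. The chymase genes Cma1 and Mcpt2 differed by log2 5.48 and 5.98 (adjusted p = 0.00221 and 0.00069). Mcpt1 had 21.2, 26.3 and 22.01 CPM in the AE9a RE libraries, against 3.53, 0 and 1.14 CPM in the WT RE libraries. Mcpt1 differed by log2 3.88 ± 0.93 (SE), with an adjusted p of 0.0246, and this call was lost without AE9a RE 1, AE9a RE 2, AE9a RE 3 or WT RE 3 (adjusted p 0.000122 to 0.0964 over single-library omissions).

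Enzymes of mast cell mediators and a lineage regulator were higher too. Hdc, which makes histamine, had 2854, 2886 and 2896 CPM in the AE9a RE libraries, against 539.6, 415 and 578 CPM in the WT RE libraries. Hdc differed by log2 2.504 ± 0.14 (SE), with an adjusted p of 0.000203. Tph1, the first enzyme of serotonin synthesis, differed by log2 3.79 (adjusted p = 0.00365) and Mitf, a transcription factor that mast cells need, by 1.91 (adjusted p = 0.000445). Cpa3, mast cell carboxypeptidase, had 4482, 5066 and 5358 CPM in the AE9a RE libraries, against 2231, 1107 and 2211 CPM in the WT RE libraries. Cpa3 differed by log2 1.44 ± 0.28 (SE), with an adjusted p of 0.0122, and its call was lost without AE9a RE 2 or AE9a RE 3 or with all 18 libraries in 1 fit (adjusted p 1.41e-05 to 0.05602 over single-library omissions). The 3 lower genes of the list were Mcpt8 and Prss34, proteases used as basophil markers, and Fcer1g, a signalling chain shared by several Fc receptors. Mcpt8 had 276, 267 and 173 CPM in the AE9a RE libraries, against 1080, 944 and 1055 CPM in the WT RE libraries. Mcpt8 differed by log2 -2.09 ± 0.195 (SE), with an adjusted p of 0.000977. Fcer1g differed by log2 -1.47 (adjusted p = 0.000778) and Prss34 by -2.92 (adjusted p = 0.0132), the last lost without AE9a RE 2 or AE9a RE 3 (adjusted p 0.000114 to 0.06204 over single-library omissions). All 3 were at their highest in WT libraries, so mast cell protease genes and basophil protease genes differed in opposite directions.

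The promoters of these mast cell genes are shown because RUNX1, whose DNA-binding part AE9a keeps, and GATA2, a mast cell regulator, recognise short motifs that can be searched in them. The windows are the 250 bases before the start of the gene, from RefSeq on GRCm38.p6 and written 5′ to 3′ on the gene's strand; these coordinates are of another build than the gene positions and neither was converted. Capitals mark a RUNX motif, TGTGGT, and a GATA motif, AGATAA or TGATAA, on either strand, so that ACCACA and TTATCA are matches on the reverse strand.
Mrgprb2 (chr7:48558087-48558336, minus strand): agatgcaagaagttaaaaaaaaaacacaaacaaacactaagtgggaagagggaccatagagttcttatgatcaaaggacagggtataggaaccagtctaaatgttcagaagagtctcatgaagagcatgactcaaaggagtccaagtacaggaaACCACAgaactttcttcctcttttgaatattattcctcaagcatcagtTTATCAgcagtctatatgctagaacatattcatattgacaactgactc
Mrgprx2 (chr7:48499271-48499520, minus strand): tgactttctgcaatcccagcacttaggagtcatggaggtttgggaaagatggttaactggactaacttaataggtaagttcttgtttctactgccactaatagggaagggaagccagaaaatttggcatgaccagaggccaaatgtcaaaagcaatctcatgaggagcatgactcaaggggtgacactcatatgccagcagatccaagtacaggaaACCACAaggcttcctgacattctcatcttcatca
Mcpt4 (chr14:56062311-56062560, minus strand): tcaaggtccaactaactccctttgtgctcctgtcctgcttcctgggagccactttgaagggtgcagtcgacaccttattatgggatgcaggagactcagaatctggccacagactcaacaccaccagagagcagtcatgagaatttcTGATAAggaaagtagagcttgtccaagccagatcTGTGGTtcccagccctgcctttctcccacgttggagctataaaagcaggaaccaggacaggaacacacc
Mcpt1 (chr14:56017714-56017963, plus strand): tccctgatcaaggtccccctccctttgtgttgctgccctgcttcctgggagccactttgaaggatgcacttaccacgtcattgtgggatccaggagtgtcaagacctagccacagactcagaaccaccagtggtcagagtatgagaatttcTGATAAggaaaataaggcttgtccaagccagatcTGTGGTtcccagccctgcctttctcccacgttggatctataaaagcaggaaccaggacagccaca
Cpa3 (chr3:20242182-20242431, minus strand): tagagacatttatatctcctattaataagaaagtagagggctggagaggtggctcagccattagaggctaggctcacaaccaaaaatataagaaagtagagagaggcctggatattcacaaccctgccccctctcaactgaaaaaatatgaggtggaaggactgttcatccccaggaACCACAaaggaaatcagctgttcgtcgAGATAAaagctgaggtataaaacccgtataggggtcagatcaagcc
The RUNX motif begins 96 bases before the start in Mrgprb2, 34 in Mrgprx2, 69 in Mcpt4, 65 in Mcpt1 and 73 in Cpa3. A GATA motif begins 48 bases before the start in Mrgprb2, 103 in Mcpt4, 99 in Mcpt1 and 46 in Cpa3, and the Mrgprx2 window has none of these letters. Of the 24 mast cell and basophil genes, 20 matched the promoter table; 11 of them (55%) had TGTGGT and 10 (50%) had AGATAA or TGATAA in a window, against 15.9% and 18.8% of the 27025 genes of the table and 13.9% and 12.4% of the 11053 matched genes among those tested. These windows were chosen after the motifs had been counted, a gene with several starts counts if any window holds the motif, and a match is a run of letters and not evidence of binding. The Mcpt4 and Mcpt1 windows are nearly the same, with both motifs at like places, so the 20 matched genes are not independent of each other.

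Another set of genes was present in AE9a RE and not detected in WT RE. In all, 18 genes had at least 5 CPM on average in AE9a RE and 0 fragments in all 3 WT RE libraries; 14 of them also had 0 fragments in the 3 WT DMSO libraries, and 0 genes showed the reverse. Folds for these genes are lower bounds, set against 3 fragments over the whole WT group. Pax6 (chromosome 2, 105499241 to 105528755, plus strand), a transcription factor of eye, brain and pancreas, had 19.96, 23.5 and 24.4 CPM in the AE9a RE libraries and was at least 392-fold higher. Kcnc4 (chromosome 3, 107345614 to 107367617, minus strand), a voltage-gated potassium channel, had 21.6, 20.6 and 14.5 CPM and was at least 328-fold higher. Hoxc4 (chromosome 15, 102926531 to 102945281, plus strand), a homeobox gene of the HOXC cluster, had 9.75, 11.1 and 8.31 CPM and was at least 169.5-fold higher. Pax6 and Kcnc4 are best known from nervous tissue, and every AE9a RE library held all 3 genes.

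Of the 12 genes with the highest differences, at 5 CPM or more and without overlap, 6 are predicted genes or members of a multicopy family with 0 fragments in every WT RE library. Speer4d (chromosome 5, 15824097 to 15828862, plus strand) and Speer4e2 (chromosome 5, 15024158 to 15028969, minus strand) belong to the Speer family, known from testis. They were at least 191-fold and 193-fold higher, with 8.79, 11.2 and 13.4 CPM of Speer4e2 in the AE9a RE libraries. The predicted gene Gm9758 (chromosome 5, 14960138 to 14964903, minus strand) had 17.4, 23.7 and 28.6 CPM in the AE9a RE libraries and was at least 402-fold higher. Gm21083 (chromosome 5, 15782291 to 15787090, plus strand) and Gm52919 (chromosome 6, 127288512 to 127298124, minus strand), also predicted genes, were at least 299.9-fold and 340.3-fold higher. Near-identical copies of Speer genes could share fragments, and each level is uncertain. In AE9a DMSO libraries Gm9758 had 2.85, 6.62 and 8.87 CPM and Speer4e2 1.75, 3.804 and 4.66 CPM, so each AE9a RE value lay above each AE9a DMSO value. Gm11538 (at least 295-fold), a predicted transcript, completed the 12 with Mrgprx2, Mrgprb2, Mcpt4, Pax6, Kcnc4 and Hoxc4. All 12 were also higher in AE9a under DMSO.

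**Figure D2:**
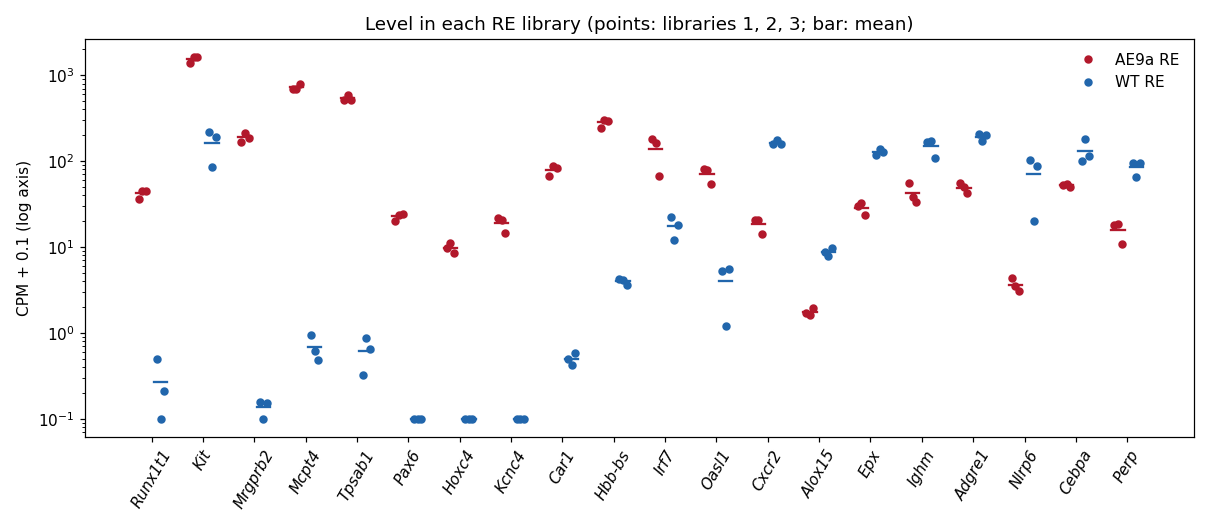
Level of 20 genes in each RE library as CPM + 0.1 on a log axis, with points for libraries 1, 2 and 3 of AE9a RE (red) and WT RE (blue) and a bar at the mean. Pax6, Hoxc4 and Kcnc4 lie at the floor of 0.1 in every WT RE library, and the genotypes do not overlap for any gene shown.

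Erythroid genes were divided. Of 26 tested, 13 were higher and 4 lower, with a median log2 difference of 0.62 (0.7005 without WT RE 2, with 13 higher and 6 lower); the number lower was 2 without AE9a RE 1, 2 or 3 or without WT RE 3. Car1 (chromosome 3, 14831274 to 14873425, minus strand), a carbonic anhydrase of early red cells, had 67.5, 87.1 and 82.99 CPM in the AE9a RE libraries, against 0.392, 0.323 and 0.488 CPM in the WT RE libraries. Car1 differed by log2 7.598 ± 0.19 (SE), with an adjusted p of 4.09e-05 (log2 7.46 without WT RE 2). Hbb-bs, an adult beta globin gene, had 245, 304 and 297 CPM in the AE9a RE libraries, against 4.09, 4.07 and 3.53 CPM in the WT RE libraries. Hbb-bs differed by log2 6.19 ± 0.13 (SE), with an adjusted p of 4.00e-05. Both were many-fold above WT RE in all 3 AE9a RE libraries. Ermap, an erythroid membrane protein, and Tspo2, a cholesterol-binding protein of red cell precursors, differed by log2 5.52 and 4.53 (adjusted p = 0.000213 and 0.00197). Slc4a1, the anion exchanger of red cells, was at least 22.9-fold higher, with 0 fragments in WT RE.

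Other erythroid genes went the opposite way. Aqp1, a water channel of red cells and of endothelium, had 1.13, 1.48 and 1.43 CPM in the AE9a RE libraries, against 38.9, 9.11 and 29.5 CPM in the WT RE libraries. Aqp1 differed by log2 -4.24 ± 0.59 (SE), with an adjusted p of 0.00384 (log2 -4.66 without WT RE 2). Hbb-bt, the near-identical neighbour of Hbb-bs, was lower, at log2 -2.68 (adjusted p = 0.02602), which was lost without AE9a RE 1, AE9a RE 2, AE9a RE 3, WT RE 1 or WT RE 3 (adjusted p 5.43e-07 to 0.0972 over single-library omissions). The counting could split fragments between the 2 globin genes. Nfe2, a transcription factor of red cells and megakaryocytes, had 87.9, 88.4 and 86.1 CPM in the AE9a RE libraries, against 202, 216 and 219 CPM in the WT RE libraries. Nfe2 differed by log2 -1.27 ± 0.06 (SE), with an adjusted p of 0.000127. Klf1, a master regulator of red cell genes, was higher by 0.58 (adjusted p = 0.0417) and Zfpm1, the GATA1 cofactor, lower, at log2 -1.96 (adjusted p = 0.0364). The Klf1 call was lost without AE9a RE 1, AE9a RE 2, AE9a RE 3, WT RE 1 or WT RE 3, with all 18 libraries in 1 fit or with upper-quartile scaling (adjusted p 0.0299 to 0.158 over single-library omissions), and the Zfpm1 call without AE9a RE 1, AE9a RE 2, AE9a RE 3, WT RE 1 or WT RE 3 or with all 18 libraries in 1 fit (5.73e-07 to 0.128). Of 17 heme and iron genes, 4 were higher and 0 lower (median 0.04), and the 23.5% called lay below the 32.6% of all tested genes. Fech, the last enzyme of heme synthesis, led them at log2 0.61 (adjusted p = 0.00316). The number higher was 1 without AE9a RE 2 or AE9a RE 3 and 2 without AE9a RE 1, WT RE 1 or WT RE 3. Without WT RE 2, 6 were higher and 3 lower.

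Genes of the type I interferon response, which cells switch on through the interferon receptor and which includes antiviral enzymes, were higher as a group. Of 29 tested, 23 were higher and 0 lower, with a median log2 difference of 1.79 (1.54 without WT RE 2, with 26 of 30 higher). The number rested on single libraries: it was 11, 9 and 25 without AE9a RE 1, 2 or 3, and 14 and 12 without WT RE 1 or WT RE 3, with 0 lower each time. Irf7, the factor that amplifies interferon production, had 181, 163 and 67.5 CPM in the AE9a RE libraries, against 22.4, 11.9 and 17.95 CPM in the WT RE libraries. Irf7 differed by log2 2.99 ± 0.44 (SE), with an adjusted p of 0.00472 (log2 2.76 without WT RE 2). AE9a RE 3 held less than the other AE9a RE libraries and still more than any WT RE library.

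Oasl1, an oligoadenylate synthetase-like protein that restrains Irf7 translation in the mouse, had 80.8, 78.8 and 53.8 CPM in the AE9a RE libraries, against 5.21, 1.098 and 5.48 CPM in the WT RE libraries. Oasl1 differed by log2 4.17 ± 0.55 (SE), with an adjusted p of 0.00315. Oas2 and Usp18, an antiviral enzyme and the enzyme that removes ISG15 from proteins, differed by log2 3.48 and 3.41 (adjusted p = 0.00106 and 0.00739). Isg15, a ubiquitin-like protein, had 66.2, 57.1 and 24.4 CPM in the AE9a RE libraries, against 8.68, 1.68 and 8.03 CPM in the WT RE libraries. Isg15 differed by log2 3.01 ± 0.66 (SE), with an adjusted p of 0.0184, and its call was lost without AE9a RE 1 or AE9a RE 2 (adjusted p 0.00179 to 0.0717 over single-library omissions). Ifit3 had 6.92, 3.81 and 0.826 CPM in the AE9a RE libraries, against 0.5602, 0.129 and 0.325 CPM in the WT RE libraries. Ifit3 differed by log2 3.47 ± 0.896 (SE), with an adjusted p of 0.0309, which was lost without AE9a RE 1, AE9a RE 2, WT RE 1 or WT RE 3 (0.0163 to 0.0898). For each of these 6 genes the lowest AE9a RE value lay above the highest WT RE value. Under DMSO 25 of the list were higher in AE9a and 0 lower, at a median of 2.08.

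The windows before the start of Isg15 and Ifit3 are given because this response works through an element of repeated GAAA, and capitals mark 2 copies of GAAA with 2 bases between them, on either strand.
Isg15 (chr4:156200819-156201068, minus strand): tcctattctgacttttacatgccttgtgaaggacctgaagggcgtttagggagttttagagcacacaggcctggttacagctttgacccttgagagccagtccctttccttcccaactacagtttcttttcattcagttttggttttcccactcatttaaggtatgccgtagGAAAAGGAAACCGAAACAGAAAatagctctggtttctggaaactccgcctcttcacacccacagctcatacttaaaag
Ifit3 (chr19:34583279-34583528, plus strand): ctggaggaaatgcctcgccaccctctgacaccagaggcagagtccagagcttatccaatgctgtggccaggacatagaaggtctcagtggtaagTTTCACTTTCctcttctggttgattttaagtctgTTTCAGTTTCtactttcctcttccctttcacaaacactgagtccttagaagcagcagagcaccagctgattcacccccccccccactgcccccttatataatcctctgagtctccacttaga
In Isg15 the motif begins 78, 72 and 66 bases before the start, as 3 overlapping matches, and in Ifit3 156 and 122 bases before it on the reverse strand. Of the 30 interferon genes listed, 21 matched the promoter table and 11 (52.4%) held this motif, against 3.46% of all 27025 genes, 3.17% of the matched tested genes and 1 of 20 (5%) of the mast cell and basophil genes. The RUNX motif TGTGGT was in 3 of those 21 (14.3%). As above, the letters describe the windows and not what binds them.

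Genes reported as AML1-ETO targets in other systems were called higher more often than lower, although their median lay below 0 with WT RE 2 and above 0 without it. Of 27 tested, 9 were higher and 4 lower (median log2 difference -0.13; 11 and 8 without WT RE 2, at a median of 0.07). The count higher was 6 without AE9a RE 2 or AE9a RE 3. Sphk1 (chromosome 11, 116421662 to 116427502, plus strand), which makes sphingosine phosphate, had 75.2, 78.6 and 67.9 CPM in the AE9a RE libraries, against 2.02, 3.49 and 2.28 CPM in the WT RE libraries. Sphk1 differed by log2 4.85 ± 0.22 (SE), with an adjusted p of 0.000126 (log2 5.09 without WT RE 2). Pou4f1, a neuronal transcription factor found high in human leukemias with this fusion, had 4.71, 5.42 and 5.89 CPM in the AE9a RE libraries, against 0.784, 0.452 and 0.488 CPM in the WT RE libraries. Pou4f1 differed by log2 3.205 ± 0.27 (SE), with an adjusted p of 0.000683. The cell cycle gene Ccnd2 had 1241, 1420 and 1470 CPM in the AE9a RE libraries, against 389, 187 and 396 CPM in the WT RE libraries. Ccnd2 differed by log2 2.097 ± 0.299 (SE), with an adjusted p of 0.00422. In all 3, each AE9a RE library exceeded each WT RE library. Cebpa, a granulocyte regulator reported to be repressed by the fusion, had 52.6, 54.3 and 49.8 CPM in the AE9a RE libraries, against 99.8, 183 and 114 CPM in the WT RE libraries. Cebpa differed by log2 -1.33 ± 0.23 (SE), with an adjusted p of 0.00865 (log2 -1.04 without WT RE 2). Bcl2, a survival protein, was lower, at log2 -1.599 (adjusted p = 0.0266), which was lost without AE9a RE 1, AE9a RE 2, AE9a RE 3, WT RE 1 or WT RE 3 (adjusted p 6.30e-07 to 0.0973 over single-library omissions).

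Among 31 hematopoietic transcription factors, 9 were higher and 5 lower (15 and 7 without WT RE 2; 4 to 6 higher without any other single library). Runx1 itself had 359, 434 and 434 CPM in the AE9a RE libraries, against 269, 217 and 292 CPM in the WT RE libraries. Runx1 differed by log2 0.67 ± 0.13 (SE), with an adjusted p of 0.0134, lost without AE9a RE 2 or AE9a RE 3 (adjusted p 0.00153 to 0.0681 over single-library omissions); fragments of the fusion transcript may be among them. Gata2 differed by 0.82 (adjusted p = 0.02603), lost without AE9a RE 1, AE9a RE 2, AE9a RE 3 or WT RE 1 or with all 18 libraries in 1 fit (0.000308 to 0.103). Gfi1b, a repressor of red cell and platelet development, was lower, at log2 -1.95 (adjusted p = 0.0147), lost without AE9a RE 1, AE9a RE 2 or AE9a RE 3 (1.14e-06 to 0.0719). Gata3, a factor of T cells and other lineages, had 26.7, 31.7 and 28.4 CPM in the AE9a RE libraries, against 1.01, 0.8395 and 1.08 CPM in the WT RE libraries. Gata3 differed by log2 4.88 ± 0.15 (SE), with an adjusted p of 5.39e-05 (log2 4.77 without WT RE 2), and it was the T cell list's only higher gene, with 2 of that list's 7 tested genes lower.

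Cytokine and chemokine receptors were divided evenly, with 7 of 25 higher and 7 lower (10 and 11 without WT RE 2; 3 lower without any AE9a RE library). Besides Kit, Il1rl1, the receptor of interleukin-33 on mast cells, had 3146, 3634 and 3684 CPM in the AE9a RE libraries, against 687, 352 and 704 CPM in the WT RE libraries. Il1rl1 differed by log2 2.595 ± 0.28 (SE), with an adjusted p of 0.00164. Il18r1, a chain of the interleukin-18 receptor, differed by 1.58 (adjusted p = 0.0008). On the lower side, Cxcr2, the chemokine receptor of neutrophils, had 20.6, 20.3 and 14.1 CPM in the AE9a RE libraries, against 158, 175 and 159 CPM in the WT RE libraries. Cxcr2 differed by log2 -3.15 ± 0.17 (SE), with an adjusted p of 0.000196 (log2 -3.12 without WT RE 2). The WT RE libraries held it at like levels, WT RE 2 included, and all lay far above AE9a RE.

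Megakaryocyte and platelet genes were called lower and none higher. Of 21 tested, 9 were lower and 0 higher, with a median log2 difference of -2.91. WT RE 2 decided this count: without it 19 were lower and 1 higher (median -3.48), and without any other single library, AE9a RE 1, 2 or 3, WT RE 1 or WT RE 3, 1 was lower. Gp6, the collagen receptor of platelets, had 2.61, 1.12 and 0.936 CPM in the AE9a RE libraries, against 54.0002, 1.42 and 70.8 CPM in the WT RE libraries. Gp6 differed by log2 -4.76 ± 1.34 (SE), with an adjusted p of 0.0402 (log2 -5.36 without WT RE 2). Tubb1, the tubulin of platelets, had 0.907, 0.538 and 0.385 CPM in the AE9a RE libraries, against 13.1, 1.03 and 16.98 CPM in the WT RE libraries. Tubb1 differed by log2 -4.07 ± 1.04 (SE), with an adjusted p of 0.0294 (log2 -4.63 without WT RE 2). Clec1b and Gp1bb, both platelet surface receptors, differed by log2 -4.02 and -3.77 (adjusted p = 0.0395 and 0.0381). For Tubb1, WT RE 2 lay between the AE9a RE libraries and the other WT RE libraries, and for Gp6 it lay within the range of the AE9a RE libraries. All 4 calls were lost without any one of AE9a RE 1, AE9a RE 2, AE9a RE 3, WT RE 1 or WT RE 3, with adjusted p over single-library omissions of 4.37e-06 to 0.143 for Gp6, 7.40e-06 to 0.115 for Tubb1, 1.79e-05 to 0.141 for Clec1b and 5.36e-06 to 0.138 for Gp1bb.

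Among the 12 lowest differences of genes at 5 CPM or more whose groups did not overlap, WT RE 2 was the lowest of the WT RE libraries for all but Arg1. Nlrp6, an inflammasome sensor, had 4.25, 3.41 and 2.97 CPM in the AE9a RE libraries, against 103, 19.9 and 88.5 CPM in the WT RE libraries. Nlrp6 differed by log2 -4.3 ± 0.66 (SE), with an adjusted p of 0.00547 (log2 -4.76 without WT RE 2). Gstt1, a glutathione transferase, had 3.57, 4.84 and 3.302 CPM in the AE9a RE libraries, against 158, 7.69 and 104 CPM in the WT RE libraries. Gstt1 differed by log2 -4.51 ± 1.06 (SE), with an adjusted p of 0.0234 (log2 -5.06 without WT RE 2). In both, WT RE 2 was well below WT RE 1 and 3 but above AE9a RE. Arg1, arginase of macrophages, had 0.284, 0.224 and 0.05504 CPM in the AE9a RE libraries, against 7.62, 80.98 and 1.41 CPM in the WT RE libraries. Arg1 differed by log2 -7.25 ± 1.896 (SE), with an adjusted p of 0.0321 (log2 -4.53 without WT RE 2), and here WT RE 2 was far the highest. Cd226, an adhesion receptor of platelets and lymphocytes, differed by -4.21 (adjusted p = 0.0121). Gstt1 lost its call without AE9a RE 1, AE9a RE 2, AE9a RE 3, WT RE 1 or WT RE 3 (adjusted p 2.05e-06 to 0.0969 over single-library omissions), and Arg1 and Cd226 lost theirs without AE9a RE 1, AE9a RE 2 or AE9a RE 3 (0.00304 to 0.118 and 5.46e-07 to 0.0631). Of these 12, 9 were also lower under DMSO.

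Eosinophil and B cell genes had lower and no higher members. Of 10 eosinophil genes tested, 5 were lower and 0 higher, with or without WT RE 2 (median -1.38, or -0.84 without it), and 3 were lower without AE9a RE 2 or AE9a RE 3. Epx, eosinophil peroxidase, had 29.9, 32.2 and 23.2 CPM in the AE9a RE libraries, against 119, 137 and 126 CPM in the WT RE libraries. Epx differed by log2 -2.15 ± 0.14 (SE), with an adjusted p of 0.000338 (log2 -2.11 without WT RE 2). Prg2, the granule major basic protein, and Alox15, a lipoxygenase, differed by log2 -2.04 and -2.38 (adjusted p = 0.000809 and 0.000451). The 3 WT RE libraries lay close together for Epx.

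Of 15 B lineage genes, 7 were lower and 0 higher (median -1.47; 12 of 16 lower without WT RE 2). The count was 2 without AE9a RE 2 or AE9a RE 3 and 3 without WT RE 1. Ighm, the immunoglobulin mu chain, had 55.6, 38.5 and 33.2 CPM in the AE9a RE libraries, against 168, 169.8 and 109 CPM in the WT RE libraries. Ighm differed by log2 -1.802 ± 0.26 (SE), with an adjusted p of 0.00428. Il7r, the interleukin-7 receptor of early lymphocytes, differed by -1.07 (adjusted p = 0.00574), and Cd79b, a chain of the B cell receptor, by -1.73 (adjusted p = 0.0174), lost without AE9a RE 2 or AE9a RE 3 (adjusted p 0.00291 to 0.0787 over single-library omissions). Each of these genes was nonetheless detected in every AE9a RE library.

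For neutrophil and primary granule genes the counts of higher genes depended on WT RE 2. With it, 25% and 15.4% of the genes tested were called, against 32.6% of all tested genes. Of 20 maturing neutrophil genes, 5 were lower and 0 higher (median -1.101), but 7 were lower and 8 higher without WT RE 2 (median -0.15), and 1 was lower without any AE9a RE library. Ly6g and Mmp9, a neutrophil surface marker and a granule gelatinase, differed by -1.89 and -1.77 (adjusted p = 0.0279 and 0.0427). The Ly6g call was lost without AE9a RE 1, AE9a RE 2 or AE9a RE 3 (adjusted p 0.00262 to 0.1005 over single-library omissions) and the Mmp9 call without AE9a RE 1, AE9a RE 2, AE9a RE 3, WT RE 1 or WT RE 3 (0.0132 to 0.108). Of 13 primary granule genes, 2 were lower and 0 higher, but 3 were lower and 5 higher without WT RE 2, and 1 was lower without any other library; Nkg7, a granule membrane protein of cytotoxic and myeloid cells, differed by -1.93 (adjusted p = 0.000237). So in both lists more genes were called higher than lower without WT RE 2, and none was called higher with it.

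Of 24 monocyte and macrophage genes, 7 were lower and 1 higher (33.3% called, against 32.6% of all tested genes). Without WT RE 2 the counts were 10 and 4. The number lower was 3 without AE9a RE 1 or AE9a RE 2 and 4 without AE9a RE 3. Adgre1, the F4/80 antigen of macrophages, had 55.2, 49.6 and 41.9 CPM in the AE9a RE libraries, against 207, 169.5 and 199.9 CPM in the WT RE libraries. Adgre1 differed by log2 -1.96 ± 0.13 (SE), with an adjusted p of 0.00037. Mrc1, the mannose receptor, differed by -1.88 (adjusted p = 0.00465). Fn1, fibronectin, differed by -2.61 (adjusted p = 0.0139), lost without AE9a RE 1, AE9a RE 2 or AE9a RE 3 (adjusted p 2.93e-05 to 0.0648 over single-library omissions). Clec10a, a lectin of macrophages and dendritic cells, was the one higher gene, with 51.3, 79.3 and 111 CPM in the AE9a RE libraries, against 24.3, 21.1 and 33.2 CPM in the WT RE libraries. Clec10a differed by log2 1.63 ± 0.32 (SE), with an adjusted p of 0.0122, lost without AE9a RE 2 (0.00508 to 0.0504).

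Of 16 dendritic cell and MHC class II genes, 7 were lower and 1 higher (12 and 1 of 17 without WT RE 2; 4 lower without AE9a RE 2). H2-DMb1, which helps load peptides on class II molecules, had 23.5, 23.9 and 23.8 CPM in the AE9a RE libraries, against 40.8, 34.7 and 40.2 CPM in the WT RE libraries. H2-DMb1 differed by log2 -0.69 ± 0.09 (SE), with an adjusted p of 0.00266. Itgax, the CD11c integrin, differed by -0.69 and Tcf4, a factor of plasmacytoid dendritic cells, by -0.75 (adjusted p = 0.00419 and 0.00345). The differences of H2-DMb1 were small but the groups did not overlap. Of 8 endothelial and stromal genes tested, 3 were lower and 0 higher (4 of 9 lower without WT RE 2), among them Pecam1 (log2 -2.34, adjusted p = 0.000351) and Pdgfrb (-2.11, adjusted p = 0.00303).

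Stem cell genes did not lie on 1 side. Of 27 tested, 5 were higher and 6 lower (median -0.96; 7 and 18 of 29 without WT RE 2; 3 lower without AE9a RE 2 or AE9a RE 3). The higher ones included Kit and Gata3, described above. Myct1, a gene of stem cells and endothelium, was lower, at log2 -2.68 (adjusted p = 0.0254), which was lost without AE9a RE 1, AE9a RE 2, AE9a RE 3, WT RE 1 or WT RE 3 (adjusted p 1.43e-05 to 0.103 over single-library omissions). Cd34 had 59.998, 66.8 and 57.95 CPM in the AE9a RE libraries, against 50.6, 44.4 and 65.8 CPM in the WT RE libraries (log2 difference 0.21, adjusted p = 0.344), which did not pass.

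HOXA and MEIS1 genes are the classical targets of MLL1 and menin. The levels of Hoxa9 (chromosome 6, 52200077 to 52203169, minus strand) were 0.624, 0.806 and 0.7705 CPM in the AE9a RE libraries, against 0.5602, 0.8395 and 0.705 CPM in the WT RE libraries (log2 difference 0.08 ± 0.26 (SE), adjusted p = 0.829), so the groups overlapped. Under DMSO it stood at 3.796, 4.28 and 3.56 CPM in AE9a DMSO and 3.25, 5.12 and 3.67 CPM in WT DMSO libraries, so in both genotypes each RE library was below each DMSO library. Hoxa7 had 0.851, 0.358 and 0.495 CPM in the AE9a RE libraries, against 1.46, 0.517 and 1.46 CPM in the WT RE libraries (log2 -1.03, adjusted p = 0.176), and under DMSO 6.34, 5.23 and 5.11 CPM in AE9a DMSO and 8.02, 6.52 and 7.64 CPM in WT DMSO libraries. The Hoxa7 difference under RE passed without WT RE 2 (log2 -1.39, adjusted p = 0.0147). Meis1, the HOX cofactor, had 14.6, 14.6 and 16.2 CPM in the AE9a RE libraries, against 58.4, 12.6 and 67.5 CPM in the WT RE libraries (log2 -1.6, adjusted p = 0.0822), and passed without WT RE 2 (log2 -2.06, adjusted p = 1.81e-06), WT RE 2 being level with the AE9a RE libraries.

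Of the 20 genes of this HOXA and MEIS1 list, 8 passed the filter on low counts under RE; 2 were higher and 2 lower (2 and 6 of 10 tested without WT RE 2, 0 lower without any AE9a RE library). Zfp521, a zinc finger protein of stem cells, had 27.2, 32.1 and 33.9 CPM in the AE9a RE libraries, against 7.51, 4.004 and 7.97 CPM in the WT RE libraries. Zfp521 differed by log2 2.26 ± 0.27 (SE), with an adjusted p of 0.00230. Pbx3, another HOX cofactor, differed by 0.74 (adjusted p = 0.0157), lost without AE9a RE 2 or AE9a RE 3 (adjusted p 0.00640 to 0.0721 over single-library omissions). Mef2c and Hoxb4 were lower, at log2 -1.91 and -1.11 (adjusted p = 0.0383 and 0.0175). The Mef2c call was lost without AE9a RE 1, AE9a RE 2, AE9a RE 3, WT RE 1 or WT RE 3 (4.70e-06 to 0.136) and the Hoxb4 call without AE9a RE 1, AE9a RE 2 or AE9a RE 3 (0.00408 to 0.0784).

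Genes of the complexes that the study's drugs address were called about as often as all tested genes, and the differences named below were small. Of 21 genes of the WDR5, MLL and menin complexes, 6 were higher and 1 lower, with a median of 0.02. That is 33.3% called, against 32.6% of all tested genes. Without WT RE 2, 6 were higher and 3 lower. The number higher was 2 without AE9a RE 2 or AE9a RE 3 and 3 without AE9a RE 1 or WT RE 3. Ash2l (chromosome 8, 26306028 to 26337722, minus strand), a core subunit beside WDR5, had 126, 128 and 127 CPM in the AE9a RE libraries, against 69.9, 67.6 and 72.7 CPM in the WT RE libraries. Ash2l differed by log2 0.87 ± 0.05 (SE), with an adjusted p of 0.000259 (log2 0.82 without WT RE 2), a small difference with tight libraries. Setd1b and Setd1a, catalytic subunits of the SET1 complexes, differed by 0.46 and -0.31 (adjusted p = 0.00351 and 0.00747), in opposite directions. Wdr5 had 131, 126 and 128 CPM in the AE9a RE libraries, against 133, 166 and 147 CPM in the WT RE libraries (log2 -0.198, adjusted p = 0.1402). Kmt2a and Men1 also did not pass, at log2 -0.26 and -0.18 (adjusted p = 0.06099 and 0.397), and Kmt2a passed without WT RE 2 (log2 -0.36, adjusted p = 0.000434).

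Targets of p53, the stress-activated tumour suppressor, were more often called lower than higher. Of 27 tested, 12 were lower and 1 higher, with a median of -0.67 (23 and 1 without WT RE 2; 6 lower without AE9a RE 2 or AE9a RE 3). Perp, an apoptosis effector of cell junctions, had 17.9, 18.2 and 10.8 CPM in the AE9a RE libraries, against 95.6, 65.3 and 95.6 CPM in the WT RE libraries. Perp differed by log2 -2.44 ± 0.26 (SE), with an adjusted p of 0.00155 (log2 -2.61 without WT RE 2). Btg2, an antiproliferative gene, had 31.02, 27.8 and 28.3 CPM in the AE9a RE libraries, against 104, 66.6 and 88.4 CPM in the WT RE libraries. Btg2 differed by log2 -1.56 ± 0.17 (SE), with an adjusted p of 0.00163. Both were lower in every AE9a RE library than in any WT RE library. Fas, a death receptor, and Pmaip1, the BH3-only protein NOXA, differed by -1.42 and -0.96 (adjusted p = 0.00297 and 0.000944). Of 16 BCL2 family genes, 4 were lower and 1 higher (31.2% called, against 32.6% of all tested genes). The counts were 8 and 3 without WT RE 2, and 2 were lower without any one AE9a RE library. Bcl2l11, the BH3-only protein BIM, was at -0.78 (adjusted p = 0.00279).

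Inflammatory genes moved in both directions. Of 26 NF-kB and inflammation genes, 10 were lower and 6 higher (12 and 6 without WT RE 2; 3 to 4 lower without any AE9a RE library and 6 without WT RE 1). Ccl2 (chromosome 11, 81926403 to 81928278, plus strand), a chemokine that attracts monocytes, had 175, 237 and 206 CPM in the AE9a RE libraries, against 14.1, 19.7 and 14.5 CPM in the WT RE libraries. Ccl2 differed by log2 3.69 ± 0.19 (SE), with an adjusted p of 0.000169 (log2 3.84 without WT RE 2). Il1b, interleukin-1 beta, had 8.11, 6.05 and 5.61 CPM in the AE9a RE libraries, against 124, 20.3 and 104 CPM in the WT RE libraries. Il1b differed by log2 -3.64 ± 0.69 (SE), with an adjusted p of 0.0112, which was lost without AE9a RE 2 or AE9a RE 3 (adjusted p 8.88e-07 to 0.0603 over single-library omissions). Counting took no account of strand, so Il1bos, which lies antisense to Il1b and was also among the 12 lowest, may hold the same fragments. Il6 and Ptgs2, which makes prostaglandins, differed by -1.68 and -1.88 (adjusted p = 0.0131 and 0.0167), and both calls were lost without AE9a RE 1, AE9a RE 2 or AE9a RE 3 (3.04e-06 to 0.0631 and 0.000126 to 0.0779). Of 25 AP-1 and immediate early genes, 6 were lower and 3 higher (36% called, against 32.6% of all tested genes). The counts were 16 and 4 without WT RE 2, and 1 to 4 were lower without any one other library.

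In growth and metabolic lists, the shares of called genes lay below the 32.6% of all tested genes when WT RE 2 was included. The shares were 18.9% for cell cycle, 20% for ribosome biogenesis and 31.2% for MYC network genes. They were 25% for cholesterol and fatty acid synthesis and 11.1% for glycolysis genes. Without WT RE 2, 55.2% of all tested genes were called. The shares for MYC network, cholesterol and fatty acid synthesis and glycolysis genes then lay above that value. Those for cell cycle and ribosome biogenesis genes lay below it. Of 37 cell cycle genes, 7 were lower and 0 higher, with a median of -0.32 (14 and 1 without WT RE 2; 0 lower without AE9a RE 2 or AE9a RE 3, 1 without AE9a RE 1 and 3 without WT RE 3). Nusap1 and Cenpf, genes of the mitotic spindle and kinetochore, differed by -0.896 and -0.74 (adjusted p = 0.0305 and 0.0144), lost without AE9a RE 1, AE9a RE 2 or AE9a RE 3 (0.000383 to 0.108) and without AE9a RE 2 or AE9a RE 3 (0.000448 to 0.0629). Of 25 ribosome biogenesis genes, 5 were higher and 0 lower (1 to 3 higher without any library other than WT RE 2, and 3 lower without WT RE 2), with Polr1a, a subunit of RNA polymerase I, at 0.57 (adjusted p = 0.00660). Of 16 MYC network genes, 3 were higher and 2 lower (8 and 4 without WT RE 2; 0 lower without any AE9a RE library). Myc had 161, 159.6 and 138 CPM in the AE9a RE libraries, against 105, 143 and 118 CPM in the WT RE libraries (log2 0.34, adjusted p = 0.0989), and passed without WT RE 2 (log2 0.45, adjusted p = 0.00320). Mxd4, a MYC antagonist, was higher by 1.39 (adjusted p = 0.000174).

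Of 24 cholesterol and fatty acid synthesis genes, 2 were higher and 4 lower (5 and 13 without WT RE 2; 2 lower without AE9a RE 2). Scd1, the desaturase that makes oleic acid, differed by -0.97 and Mvd, a mevalonate pathway enzyme, by -0.55 (adjusted p = 0.000842 and 0.00949), while Srebf2, the regulator of the pathway, was higher by 0.48 (adjusted p = 0.00136). Of 18 glycolysis genes, 2 were higher, Pfkm at 0.99 and Hk1 at 0.54 (adjusted p = 0.00037 and 0.00164), and 0 were lower; without WT RE 2, 11 were higher and 3 lower.

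Many genotype differences called under DMSO were also called under RE. The DMSO comparison called 4374 of 14515 genes (30.1%), 2175 higher and 2199 lower in AE9a DMSO. Of 14189 genes tested in both, 4603 were called under RE and 4281 under DMSO, and 3276 were called in the same direction under both, 1775 higher and 1501 lower in AE9a. That is 71.2% of the RE list and 76.5% of the DMSO list. The share of the DMSO list was 51.9%, 46.3% and 48.3% without AE9a RE 1, 2 or 3, and 54.1% without WT DMSO 2. It was 62.5% and 62.2% without WT RE 1 or WT RE 3. Higher shares came without WT RE 2 (89.1%), AE9a DMSO 1, 2 or 3 (89.4%, 89.7% and 88.1%) or WT DMSO 1 or 3 (84.3% and 84.2%). Without both WT replicate 2 libraries the share was 81.5%. With all libraries, genes called under both were 82.6% of the 2149 genes higher under DMSO and 70.4% of the 2132 genes lower under DMSO. The difference between these last shares was not tested. Of the 4281, 4244 (99.1%) had the same sign under RE. RE and DMSO libraries with the same number deviated together within each genotype (correlations below). The RE and DMSO comparisons are therefore not independent, and how much of the overlap this accounts for was not tested. The median size of the 3276 was log2 1.13 under RE and 0.97 under DMSO, and 2291 of them were larger under RE. These genes were picked by a call in both fits, and the common variation between libraries was larger under RE (0.226) than under DMSO (0.186). A call under RE could thus require a larger difference, so these sizes do not show whether RE changed the differences.

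The number that remained was 6067 without WT RE 2 and WT DMSO 2, and 2005, 2092, 1921 and 2148 without AE9a RE 2, AE9a RE 3, AE9a DMSO 2 or AE9a DMSO 3. The single gene called in opposite directions was Sh3pxd2b, an adaptor of invadopodia singled out after its values were seen, at log2 0.2005 under RE and -0.49 under DMSO. Its call under RE was lost without AE9a RE 1, AE9a RE 2, AE9a RE 3, WT RE 1 or WT RE 3, with all 18 libraries in 1 fit or with upper-quartile scaling (adjusted p 0.0248 to 0.144 over single-library omissions). Kit shows a difference that remained: log2 3.25 under RE against 3.28 under DMSO (adjusted p = 0.00123), with 865, 1200 and 986 CPM in AE9a DMSO and 125, 60.3 and 129.5 CPM in WT DMSO libraries. The level of Kit under DMSO was lower than under RE in each pair of libraries with the same number, in both genotypes. By lists, 18 mast cell genes were higher under RE and 15 under DMSO, and for erythroid genes the counts were 13 under RE and 16 under DMSO, at medians of 0.62 and 1.94.

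**Figure D3:**
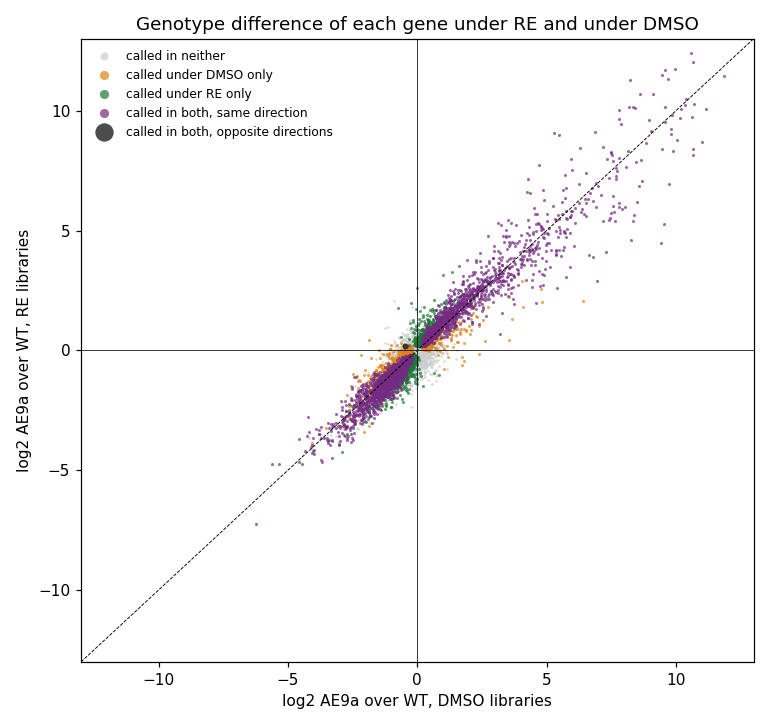
Log2 difference AE9a over WT of each gene under RE (vertical) against that under DMSO (horizontal), coloured by where it was called; the dashed line marks equal differences. The 3276 genes called in both in the same direction run along the diagonal, and the single black dot is Sh3pxd2b.

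A gene called under 1 treatment and not under the other need not differ between them, so the difference between the differences was tested over the 12 RE and DMSO libraries. Without pairing, 1 of 15439 genes passed (0.00648%; 924 had an unadjusted p under 0.05). RE and DMSO libraries with the same number deviated together within each genotype (correlations 0.48, 0.321 and 0.409 in AE9a, 0.718, 0.877 and 0.731 in WT), and with genotype by number as a block 482 genes passed (3.12%): 268 (1.74%) had a higher AE9a over WT difference under RE than under DMSO and 214 (1.39%) a lower one. Without WT RE 2 and WT DMSO 2 the block fit called 1179 genes, 476 of the 482 among them. It called 28 without AE9a RE 1 or AE9a DMSO 1, 97 and 106 without AE9a RE 2 or AE9a DMSO 2, 69 and 67 without AE9a RE 3 or AE9a DMSO 3, 135 and 127 without WT RE 1 or WT DMSO 1, 1175 and 1144 without WT RE 2 or WT DMSO 2, and 134 and 121 without WT RE 3 or WT DMSO 3. Of the 1004 genes called under DMSO only, 38 (3.78%) were among the 482, of the 1326 called under RE only 115 (8.67%), and of the 3276 called under both 188 (5.74%).

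Several erythroid genes had smaller genotype differences under RE. In the block fit 7 of 26 had a lower and 0 a higher value, with a median of -0.58 over the list (11 lower without WT RE 2 and WT DMSO 2). The count was 2 without AE9a RE 1 or AE9a DMSO 1, 3 without AE9a RE 2 or AE9a DMSO 2, and 4 without AE9a RE 3, AE9a DMSO 3, WT RE 3 or WT DMSO 3. Hbb-bs had 245, 304 and 297 CPM in the AE9a RE libraries, against 4.09, 4.07 and 3.53 CPM in the WT RE libraries. For Hbb-bs, DMSO values were 271, 388 and 339 CPM in AE9a DMSO and 1.63, 0.278 and 0.866 CPM in WT DMSO libraries (block difference -2.3 ± 0.32 (SE), adjusted p = 0.0124). Its AE9a levels overlapped between treatments while every WT RE value was above every WT DMSO value. Sptb, the beta spectrin of the red cell skeleton, had 23.6, 24.7 and 30.1 CPM in the AE9a RE libraries, against 27.1, 11.2 and 24.95 CPM in the WT RE libraries. The Sptb levels were 43.01, 48.9 and 45.8 CPM in AE9a DMSO and 17.1, 5.402 and 17.3 CPM in WT DMSO libraries (block difference -1.52 ± 0.15 (SE), adjusted p = 0.00321). The genotypes overlapped under RE, while under DMSO every AE9a value was above every WT value. AE9a RE was below AE9a DMSO in every pair and WT RE above WT DMSO in every pair, and all 12 fits that left out 1 library kept the call. Here and below, these 12 are not separate checks, because leaving out either library of a pair takes that pair out of the difference. Cldn13, a claudin, differed by -2.84, and the Hbb-bs call was kept in 8 and the Cldn13 call in 4 of the 12. Rhag (-3.11) and Ank1 (-1.36), membrane and skeleton genes of red cells, kept theirs in 6 and 4.

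Cell cycle genes had the most members called in this test. Of 37, 20 had a lower and 0 a higher value, with a median of -0.31 (25 lower without WT RE 2 and WT DMSO 2). The differences were small, and the calls depended on most libraries other than WT RE 2 and WT DMSO 2: 0 to 4 were called when any one AE9a library was left out, 3 to 4 without WT RE 1, WT DMSO 1, WT RE 3 or WT DMSO 3, but 25 without WT RE 2 and 24 without WT DMSO 2. The median change of the list, RE minus DMSO, was log2 -0.5 in AE9a and -0.16 in WT cells. Top2a, the mitotic topoisomerase, had 409, 376 and 375 CPM in the AE9a RE libraries, against 427, 711 and 444 CPM in the WT RE libraries. Without RE, Top2a had 606, 524 and 584 CPM in AE9a DMSO and 449.6, 759 and 503 CPM in WT DMSO libraries (block difference -0.45 ± 0.06 (SE), adjusted p = 0.0149). It was lower under RE than under DMSO in all 3 pairs of each genotype. Mki67, a proliferation marker, differed by -0.41; Top2a kept its call in 8 and Mki67 in 2 of the 12 single omissions.

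For other genes the signed AE9a over WT log2 difference was higher under RE than under DMSO. Prune2 (chromosome 19, 16933033 to 17201322, plus strand), a BCH domain protein, had 74.5, 117 and 127 CPM in the AE9a RE libraries, against 25.3, 43.2 and 28.04 CPM in the WT RE libraries. The Prune2 levels were 29.4, 44.95 and 48.98 CPM in AE9a DMSO and 40.9, 51.1 and 37.1 CPM in WT DMSO libraries (block difference 1.804 ± 0.11 (SE), adjusted p = 0.000533). AE9a RE was above AE9a DMSO in every pair and WT RE below WT DMSO in every pair, and all 12 omissions kept the call. Dgki, a diacylglycerol kinase, had 5.73, 7.17 and 13.98 CPM in the AE9a RE libraries, against 12.8, 5.23 and 12.4 CPM in the WT RE libraries. For Dgki, DMSO values were 0.799, 0.914 and 2.16 CPM in AE9a DMSO and 6.001, 3.23 and 7.997 CPM in WT DMSO libraries (block difference 1.998 ± 0.21 (SE), adjusted p = 0.00384), also kept in all 12. Its genotypes overlapped under RE, while under DMSO every AE9a value was below every WT value, so its genotype difference was the smaller one under RE (log2 -0.18, against -2.16 under DMSO). Ghr, the growth hormone receptor, had 6.12, 6.77 and 7.48 CPM in the AE9a RE libraries, against 1.29, 0.904 and 1.14 CPM in the WT RE libraries. Without RE, Ghr had 0.949, 1.76 and 1.103 CPM in AE9a DMSO and 2.299, 0.557 and 1.07 CPM in WT DMSO libraries (block difference 2.59 ± 0.41 (SE), adjusted p = 0.0178), kept in 4; it was high in AE9a RE alone. Cpeb1, which binds mRNA tails, differed by 2.16 (kept in 11), Etl4 by 2.097 (6), Rnls by 2.02 (2) and Epcip by 1.59 (7).

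The chemokines Ccl7 and Ccl2 were among them. Ccl7 had 47.7, 38.1 and 71.99 CPM in the AE9a RE libraries, against 4.65, 4.78 and 2.33 CPM in the WT RE libraries. The Ccl7 levels were 19.6, 19.9 and 31.8 CPM in AE9a DMSO and 9.09, 4.96 and 4.64 CPM in WT DMSO libraries (block difference 1.81 ± 0.22 (SE), adjusted p = 0.00755; call kept in 10 of 12 single omissions, lost without AE9a RE 1 or AE9a DMSO 1). Ccl2 had 72.4, 114 and 84.7 CPM in AE9a DMSO and 22.3, 14.6 and 19.7 CPM in WT DMSO libraries, beside the RE levels above (block difference 1.44 ± 0.21 (SE), adjusted p = 0.0156; kept in 5). For both, every AE9a RE value was above every AE9a DMSO value, and the WT treatments overlapped. Clec10a, the macrophage lectin, differed by 1.52 and kept its call in 10.

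Mast cell genes were called in both directions, 3 higher and 2 lower of 24, with a median of 0.04 (7 higher and 3 lower without WT RE 2 and WT DMSO 2; 1 or 2 higher and 0 lower without any other library). The higher ones were Hpgds (1.22), the prostaglandin D synthase of hematopoietic cells, Hdc (0.78) and Csf2rb (0.52), a shared cytokine receptor chain, and the lower ones Mcpt1 (-2.85) and Mcpt2 (-2.01). Hpgds kept its call in all 12 single omissions, Hdc, Csf2rb and Mcpt1 in 2 and Mcpt2 in 1. Mcpt1 and Mcpt2 had so few fragments in WT libraries that their differences rest on those counts. Kit was not among them, at -0.01 (adjusted p = 0.981).

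Lower values were also called for Dnase2b, an acid nuclease, which had 84.5, 96.2 and 92.3 CPM in the AE9a RE libraries, against 2.97, 16.1 and 5.97 CPM in the WT RE libraries. For Dnase2b, DMSO values were 57.3, 79.8 and 62.9 CPM in AE9a DMSO and 0.673, 1.56 and 1.07 CPM in WT DMSO libraries (block difference -2.41 ± 0.23 (SE), adjusted p = 0.00321; kept in all 12). Every WT RE value was above every WT DMSO value. Igfbp5, which binds insulin-like growth factors, had 30.2, 82.3 and 62.4 CPM in the AE9a RE libraries, against 33.4, 2.196 and 5.97 CPM in the WT RE libraries. Without RE, Igfbp5 had 19.5, 83.7 and 47.6 CPM in AE9a DMSO and 0.841, 0.167 and 0.764 CPM in WT DMSO libraries (block difference -4.12 ± 0.41 (SE), adjusted p = 0.00357; kept in all 12), with WT RE 1 the highest of the WT libraries. Pkhd1l1 differed by -2.91 (kept in 2). Sema5b, a semaphorin, differed by -9.83 (kept in 4), with 0, 1.84 and 0 CPM in the AE9a RE libraries, against 57.9, 0 and 0 CPM in the WT RE libraries; WT RE 1 alone was high, and without it the value was 2.01.

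**Figure D4:**
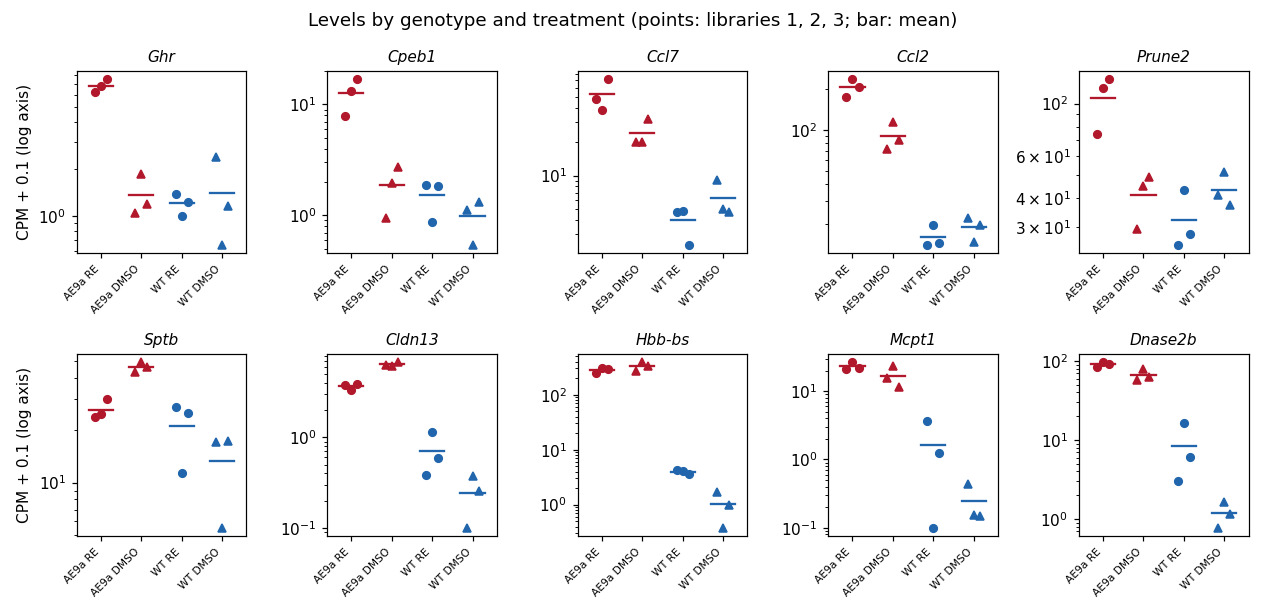
Levels of 10 genes as CPM + 0.1 on log axes in AE9a RE, AE9a DMSO, WT RE and WT DMSO libraries (circles RE, triangles DMSO; red AE9a, blue WT; bar at the mean). In the top row, genes whose AE9a over WT log2 difference was higher under RE; in the bottom row, genes whose log2 difference was lower under RE, as for Dnase2b at 84.5 to 96.2 CPM in AE9a RE and 2.97 to 16.1 CPM in WT RE.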

How the data were processed

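RNA of mouse cKit+ bone marrow cells was sequenced by a service provider, per the labels. The values used are whole-number counts of fragments per gene for 41079 genes of GRCm39, as deposited in a table per genotype. Per the submitters' processing notes, the authors used FastQC 0.11.9, fastp 0.23.2, HISAT2 2.1.0 and featureCounts 2.0.3, while the file headers name featureCounts 1.6.2, counting read pairs over exons without regard to strand. Totals were 16053727 to 27207748 fragments over 18 libraries; 0 pairs of libraries were identical and 0 count columns lacked a sample. Depth limits precision for genes with few fragments.

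The 6 RE libraries, and separately the 6 DMSO libraries, were fitted with edgeR 4.0.16 (filterByExpr, TMM, quasi-likelihood F test, Benjamini-Hochberg over all genes tested, threshold 0.05; R 4.3.3). CPM use TMM over the 12 DMSO and RE libraries. SE is the log2 difference divided by the square root of F. The genotype difference under RE minus that under DMSO was fitted over 12 libraries, without and with genotype by replicate number as a block. The block takes RE and DMSO libraries with the same number within a genotype as pairs, which had the correlations given above. WT RE 1 also correlated with WT DMSO 3 at 0.669, and WT RE 3 with WT DMSO 1 at 0.688. These are near the same-number values of 0.718 and 0.731, so the correlations do not settle how WT 1 and 3 pair. A gene at 0 in a group was set against 3 fragments over the group, and 1 to 3 fragments gave a ratio with an exact 95% interval. Motifs were searched on both strands of RefSeq windows of GRCm38.p6. Alternatives were DESeq2 1.42.0, limma 3.58.1, other scalings and filters, and leaving out each library.

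The members and the 28 lists, whose symbols matched 570 of 572, were chosen with earlier results of these data known. Named by rule were the 12 highest and 12 lowest log2 differences with adjusted p under 0.05, a mean of 5 CPM or more in either genotype and groups that did not overlap, up to 4 called genes per list at 5 CPM, the 8 highest and 8 lowest differences between treatments, and a preset list (Runx1t1, Runx1, Nanog, Wdr5, Kmt2a, Men1, Kit, Hoxa7, Hoxa9, Meis1, Cebpa, Gata2, Klf1, Myc, Cd34 and Irf7 among them). The rule for treatments was applied to the block fit, a choice made after seeing the data. Not all are printed, and some results are not reported here. Ccl2, Clec10a, Top2a, Mki67, Rhag, Sptb, Ank1, Hdc, Hpgds, Csf2rb and Mcpt2 in the block fit, Sh3pxd2b, and the genes under other observations were chosen after their values were seen. C16 libraries entered only the fit of all 18.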

Additional observations from a re-analysis of the deposited data

Results flagged for a closer look

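The genotype difference under RE differed from that under DMSO, by a test of that difference itself, for the genes below (log2, RE minus DMSO; adjusted p under 0.05). All values are from the block fit, which was chosen after the data were seen. In the fit without pairing, each of these genes had an adjusted p of 0.168 or more. Many of the calls were lost when 1 library was left out, as given above gene by gene. In DESeq2 with the same block, Rnls (adjusted p = 0.0559) and Sema5b (log2 -0.529) did not pass. Among erythroid genes, Hbb-bs was at -2.3, Cldn13 at -2.84, Sptb at -1.52, Rhag at -3.11 and Ank1 at -1.36. Among mast cell genes, Mcpt1 was at -2.85, Mcpt2 at -2.01, Hpgds at 1.22, Hdc at 0.78 and Csf2rb at 0.52. The cell cycle genes Top2a and Mki67 were at -0.45 and -0.41. Higher signed differences under RE were found for Ghr at 2.59, Cpeb1 at 2.16, Etl4 at 2.097, Rnls at 2.02, Dgki at 1.998, Ccl7 at 1.81, Prune2 at 1.804, Epcip at 1.59, Clec10a at 1.52 and Ccl2 at 1.44. Lower signed values were found for Igfbp5 at -4.12, Pkhd1l1 at -2.91, Dnase2b at -2.41 and Sema5b at -9.83, the last resting on WT RE 1 alone.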

How the results depend on the processing

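The number of genes called for AE9a RE against WT RE (4753) lay between 2363 and 8362 when 1 library was left out, the highest without WT RE 2, and was 8036 with limma-voom and quality weights. The DMSO comparison (4374) gave 2192 to 7620 with 1 library left out, the highest without WT DMSO 2, and 7363 with limma-voom and quality weights. Differences that remained (3276) numbered 1921 to 3906 with 1 library left out, 6067 without both WT replicate 2 libraries and 5801 with limma-voom. Unpaired, the difference between treatments (1 gene) was called for 0 to 3 genes with 1 library left out, 249 without both WT replicate 2 libraries, 100 with DESeq2, 213 with limma-voom and 0 in a fit of all 18 libraries. Upper-quartile scaling moved the median log2 difference by -0.05 and RLE by -0.02. Other scalings, filters and DESeq2 kept the RE count between 4472 and 5495, and a fit of all 18 libraries gave 5664. More genes were lower than higher with upper-quartile scaling (2232 higher, 2419 lower), in the fit of all 18 (2814, 2850) and without WT RE 2 (4178, 4184). The cause of these changes was not tested.

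With the replicate block, the difference between treatments was called for 482 genes, 28 without AE9a RE 1 or DMSO 1, 97 and 106 without AE9a RE 2 or DMSO 2, 69 and 67 without AE9a RE 3 or DMSO 3, 135 and 127 without WT RE 1 or DMSO 1, 1175 and 1144 without WT RE 2 or DMSO 2, 134 and 121 without WT RE 3 or DMSO 3, 1179 without both WT replicate 2 libraries, 494 with RLE, 493 with upper-quartile scaling and 372 with DESeq2. Across genotypes the replicate numbers did not pair the libraries (same-number correlations -0.0723, 0.0791 and 0.135 under RE, -0.0578, -0.188 and -0.113 under DMSO); with that block 3050 genes were called under RE, 2367 under DMSO and 1831 remained. Hoxa9, which did not pass, lay between -0.0559 and 0.209 with 1 library left out, the lowest without WT RE 1. Sema5b turned to 2.01 without WT RE 1 or WT DMSO 1 in the block fit. Of 119 named genes with a call, 83 kept it under every alternative checked gene by gene, and 0 lost it without WT RE 2. Those alternatives were DESeq2, the fit of all 18 libraries, the replicate block, RLE and upper-quartile scaling, and leaving out each RE library. The other filters and limma-voom were not checked gene by gene.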

Other observations

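A few further genes of the lists were looked at after their values were seen. Txnip, which restrains glucose uptake, had 672, 824 and 817 CPM in the AE9a RE libraries, against 186, 246 and 204 CPM in the WT RE libraries. Txnip differed by log2 1.87 ± 0.14 (SE), with an adjusted p of 0.000463 (log2 1.98 without WT RE 2). Ly6a, the stem cell antigen Sca-1, which interferon also induces, had 111, 91.4 and 46.2 CPM in the AE9a RE libraries, against 15.96, 28.4 and 23.4 CPM in the WT RE libraries. Ly6a differed by log2 1.89 ± 0.38 (SE), with an adjusted p of 0.0134 (log2 2.07 without WT RE 2), lost without AE9a RE 2 (adjusted p 0.00259 to 0.0551 over single-library omissions). Both were higher in every AE9a RE library than in any WT RE library. Bik, a BH3-only protein that promotes apoptosis, had 2.495, 3.32 and 3.85 CPM in the AE9a RE libraries, against 0.112, 0.7104 and 0.217 CPM in the WT RE libraries. Bik differed by log2 3.25 ± 0.57 (SE), with an adjusted p of 0.00883 (log2 4.22 without WT RE 2), and was the one higher gene of the BCL2 family list. Txnip also differed by 1.61 under DMSO (adjusted p = 0.000816), Ly6a by 2.03 under DMSO (adjusted p = 0.0119) and Bik by 3.898 under DMSO (adjusted p = 0.00700), so the 3 differences were called under both treatments.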
